A study of Homo sapiens with 9 samples.

Results

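The human miRNAs with the highest numbers in their names, from 3000 upward, were followed through a miRNA trapping experiment with the PD-L1 3'UTR. A name was a member when it read hsa-miR- with a number of at least 3000 and held at least 30 raw counts summed over all 9 libraries, so members were selected on their summed counts. Counts of genomic loci that carry one name were added. Of 2652 mature miRNA names in the table, 1495 are numbered 3000 upward, 738 of these held at least 1 count, and 148 were members. In all, 611 names reached 30 counts, the others being 413 names numbered below 1000 or in the let-7 family and 50 numbered from 1000 to below 3000. Just inside the threshold lay miR-10400-5p and miR-6850-5p with 30 counts each, and just outside it miR-7705 with 29. Their abundance is a description and not a finding.

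All libraries came from ES-2, an established ovarian cancer derived cell line, of wild-type genotype and untreated. miTRAP (miRNA trapping by RNA in vitro affinity purification) couples an in vitro transcribed bait RNA with MS2 loops to amylose resin through a fusion of maltose-binding protein and MS2 binding protein, and collects what a cell extract leaves on it. The 3 groups, of 3 libraries each, were the input extract, the eluate of a resin that carried the MS2 control RNA alone, and the eluate of a resin with the PD-L1 3'UTR fused to MS2 loops. PD-L1, encoded by CD274, is the immune checkpoint ligand of PD-1. The baits were loaded in different molar amounts, so bait sequence and bait amount cannot be told apart. The labels do not say that the 3 libraries of a group came from separate cultures, and p-values therefore measure only the spread between these libraries.

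A miRNA is a short RNA cut from a hairpin precursor and held by an Argonaute protein, which it guides to mRNAs by pairing through its seed, bases 2 to 8 from its 5' end. Numbers were given to miRNAs in the order in which they were described. High numbers were mostly assigned from deep sequencing, and many of these miRNAs are poorly conserved, scarce, or lie within other RNAs such as tRNAs, rRNAs or mRNA exons. A bait pulls down miRNAs through Argonaute, but a resin and its control RNA can also hold RNAs by other routes, which the MS2 control was included to measure.

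Mature sequences from RefSeq (GRCh38.p14) were found for 127 of the 148 members. The first set is shown because these members were far higher with the MS2 control RNA than in the input. Capitals mark the seed.
miR-3662: gAAAAUGAugaguagugacugaug
miR-7974: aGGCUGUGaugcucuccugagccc
miR-10525-3p: uGACUAUGaugugcaccugau
miR-6808-3p: gUGUGACCaccguuccugcag
miR-3691-5p: aGUGGAUGauggagacucgguac
miR-3681-5p: uAGUGGAUgaugcacucugugc
miR-4488: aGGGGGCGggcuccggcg

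The second set belongs to miR-3689, the one family with several tested members, whose hairpins lie in a row on chromosome 9. The names miR-3689a-5p, miR-3689b-5p and miR-3689e share one sequence, and so do miR-3689b-3p and miR-3689c.
miR-3689a-5p: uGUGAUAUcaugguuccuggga
miR-3689f: uGUGAUAUcgugcuuccuggga
miR-3689a-3p: cUGGGAGGugugauaucguggu
miR-3689b-3p: cUGGGAGGugugauauuguggu

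The third set holds the 4 members that were higher with the PD-L1 3'UTR than in both other groups.
miR-4521: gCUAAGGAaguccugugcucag
miR-12136: gAAAAAGUcauggaggcc
miR-4473: cUAGUGCUcuccguuacaagua
miR-3152-3p: uGUGUUAGaauaggggcaauaa

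The last set was lower on the MS2 control resin than in the input.
miR-5010-3p: uUUUGUGUcucccauuccccag
miR-3173-5p: uGCCCUGCcuguuuucuccuuu
miR-5100: uUCAGAUCccagcggugccucu
miR-3940-3p: cAGCCCGGaucccagcccacuu
miR-6516-3p: aUCAUGUAugauacugcaaaca
miR-4449: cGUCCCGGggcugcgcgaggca

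Among the 53 tested members with a sequence, 48 different seeds occurred. The only shared ones were the miR-3689 seeds, GUGAUAU in 4 names and UGGGAGG in 3. In 0 of the 53 was the seed that of a tested miRNA with a lower number.

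Library totals were 3794799 to 5983577 counts in the input, 1156261 to 2236535 with the MS2 control and 672824 to 1237652 with the PD-L1 3'UTR. Because the input was sequenced deepest, the threshold on summed counts weighs the input most. Replicate libraries differed by more than sampling noise in all 9 pairs. CPM is the count scaled to a library of 1e6. A list of 12 miRNAs of blood, liver, muscle and nerve summed to 157 to 205 CPM in the input, 478 to 676 with the MS2 control and 642 to 4010 with the PD-L1 3'UTR. The highest value was that of PD-L1 3'UTR replicate 1, where the muscle miRNAs miR-1-3p and miR-206 held 2024 and 469 counts against 75 and 1 in replicate 2 and 35 and 0 in replicate 3. There the blood miRNA miR-451a held 1040 against 32 and 106, and the liver miRNA miR-122-5p 227 against 0 and 1. The blood miRNA miR-142-3p held 273 against 107 and 240. In input replicate 1, miR-142-3p and miR-142-5p held 432 and 572 of the list's 1038 counts. Of the list, 1 to 6 miRNAs were at 0 in each library, miR-144-3p in all but 1. Their part in the results below was not tested, and values without that library are given beside the named calls that changed.

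The members took a small part of each library. They summed to 0.164%, 0.161% and 0.179% of counts in the 3 input libraries, to 0.570%, 0.469% and 0.404% with the MS2 control, and to 0.281%, 0.299% and 0.281% with the PD-L1 3'UTR. The 3 groups did not overlap, and the MS2 control resin held the largest share. Means were 0.168% ± 0.00945 (SD, n = 3), 0.481% ± 0.0835 and 0.287% ± 0.0102. At an equal depth of 672824 counts, a mean of 199.8 ± 9.03 names numbered 3000 upward would be seen in the input, 221.6 ± 17.1 with the MS2 control and 167.1 ± 6.11 with the PD-L1 3'UTR. For all other names the libraries gave 433 to 439 in the input, 430 to 460 with the MS2 control and 469 to 536 with the PD-L1 3'UTR. The highest of these was PD-L1 3'UTR replicate 1.

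Few names made up much of these shares. The 5 most abundant members took 51.6% ± 2.35 of member counts in the input, 51.5% ± 1.68 with the MS2 control and 63.7% ± 2.93 with the PD-L1 3'UTR. The order in the input was miR-3615, miR-4326, miR-4449, miR-3689f and miR-7706. With the MS2 control it was miR-4326, miR-3689f, miR-4521, miR-3615 and miR-4488, and with the PD-L1 3'UTR miR-4521, miR-3615, miR-4449, miR-4326 and miR-7706. Thus miR-4521 alone was 30.9% ± 1.50 of member counts on the PD-L1 3'UTR resin.

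CPM below are further scaled by the trimmed mean of M-values (TMM), which centres the bulk of miRNAs between libraries. Differences were tested with edgeR's quasi-likelihood test over 408 names that passed a filter on low counts, and adjusted by Benjamini-Hochberg over all of them. Of the 148 members, 61 passed that filter and 87 did not. The filter's level, 8.05 CPM, is taken on library totals before TMM scaling. Of the 61, 33 held it throughout only 1 group, which was the MS2 control for 22, the input for 9 and the PD-L1 3'UTR for 2. Passing through 1 high group favours a difference, though some members that did so were not called. The counts of calls below, and the fold changes and adjusted p of such members, therefore describe the list and support nothing. The tested members were scarce, with a median of 12.9 CPM against 71.9 in the other 347 tested miRNAs, and more variable, with a median SD between replicates of 0.48 against 0.33 on the log2(CPM + 1) scale.

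**Figure D1:**
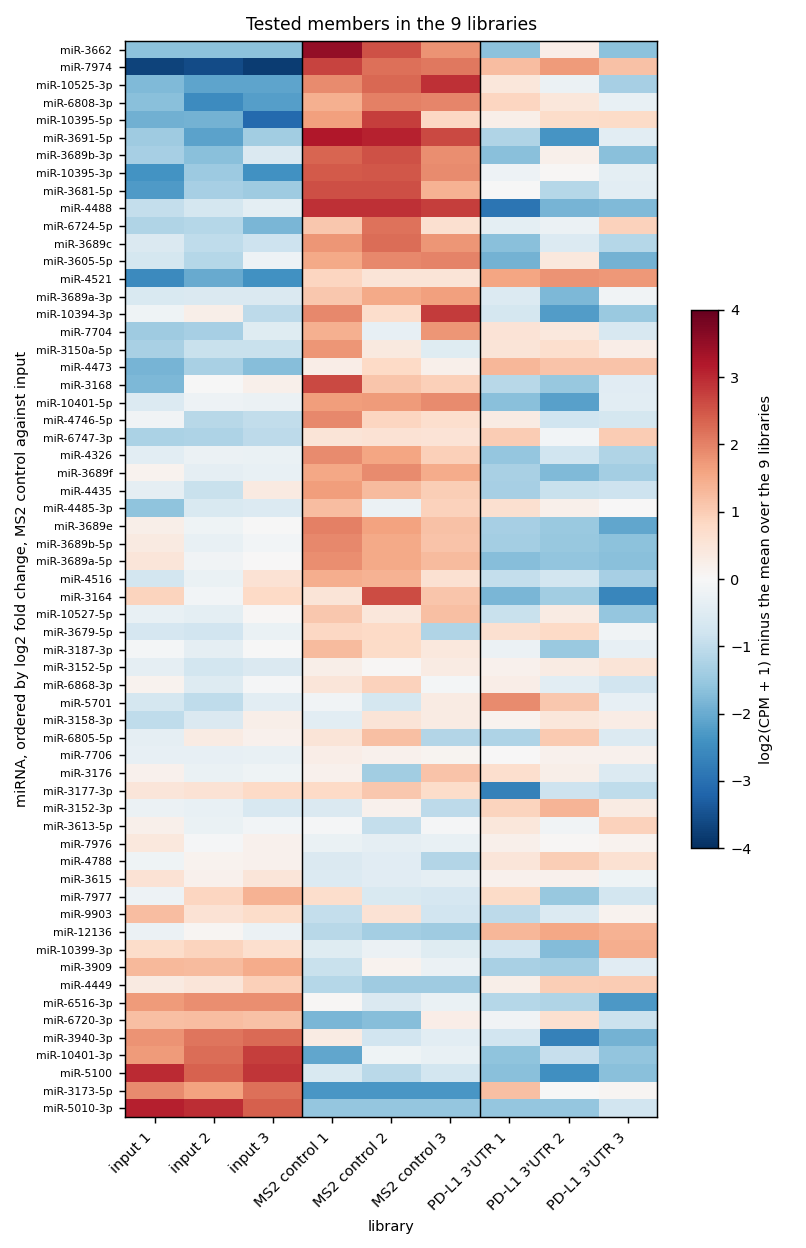
Each row is 1 of the 61 tested members and each column 1 of the 9 libraries; color gives log2(CPM + 1) minus the member's mean over the libraries, red for above and blue for below. Rows run from miR-3662, at 0 in the input, to miR-5010-3p, at 0 with the MS2 control, and most of the upper rows are red in the MS2 control columns only.

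The first comparison asked how the members behaved on the resin with the control RNA. Of the 61, 35 were higher with the MS2 control than in the input, where 32.8% of all 408 tested miRNAs were, and 11 were lower, where 37% of all were. The members' median log2 fold change was 1.38, against 0.02 over all tested. In all 46 calls the 3 MS2 control libraries lay outside the range of the 3 input libraries. Calls and ranges come from the same libraries, and the share over all called miRNAs was not counted, so this adds no support. For miRNAs numbered from 1000 to below 3000 the counts were 12 higher and 6 lower of 28, and for those below 1000 and let-7 they were 87 higher and 134 lower of 319. Among the 190 other tested miRNAs under 100 CPM, 58 were higher and 60 lower, and among the 55 members under 100 CPM 31 and 9. Levels within these 2 sets were not matched. Of the 11 members that held the filter's level in every library, 8 were higher and 2 lower. Those higher include miR-3689a-5p and miR-3689b-5p, which share one sequence. The share over other miRNAs at that level was not counted, so this too is a description. Scaling by library totals moved the median of all tested miRNAs from 0.02 to 0.65, and 39 members were then higher and 9 lower.

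**Figure D2:**
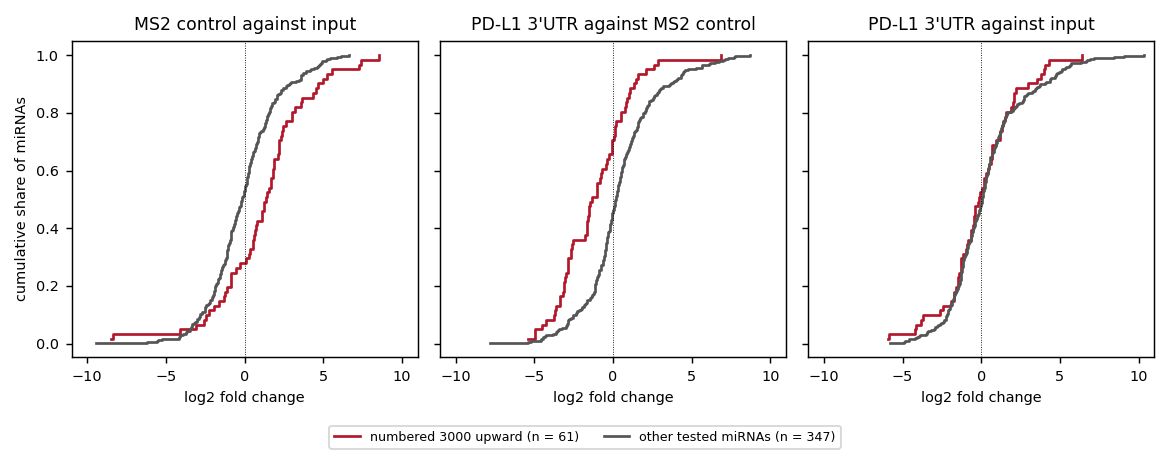
The cumulative share of miRNAs is plotted against the log2 fold change of 3 comparisons, in red for the 61 tested members and in grey for the other 347 tested miRNAs. The red curve lies to the right of the grey one for the MS2 control against input, with a member median of 1.38, to its left for the PD-L1 3'UTR against the MS2 control, at -1.35, and close to it for the PD-L1 3'UTR against input, at -0.12.

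The largest rises came from names that were almost unseen in the input. Of the members described next, miR-3662, miR-10525-3p, miR-6808-3p, miR-3691-5p and miR-3681-5p held the filter's level throughout the MS2 control alone. Their folds and adjusted p with the MS2 control therefore support nothing. miR-3662, from a hairpin within HBS1L on chromosome 6, held 0, 0 and 0 counts in the input, 53, 43 and 13 with the MS2 control and 0, 2 and 0 with the PD-L1 3'UTR. It was seen on the control resin almost alone, at least 24.7-fold higher than in the input, with the input set at 3 counts per library (edgeR adjusted p = 0.000307). Ratios for groups of 1 to 3 counts are of counts pooled over a group, divided by its pooled library sizes. Set against the PD-L1 3'UTR this ratio was 35.8, with a 95% counting interval of 9.66 to 298.9 (adjusted p = 0.00365).

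miR-7974, within ZNF653 on chromosome 19, held 2, 2 and 2 counts in the input, 199, 230 and 112 with the MS2 control and 65, 48 and 61 with the PD-L1 3'UTR. Both eluates stood far above the input, and the MS2 control above the PD-L1 3'UTR. Its log2 fold change was 7.42 ± 0.37 (SE) for the MS2 control against input (adjusted p = 1.05e-07), 6.43 ± 0.37 for the PD-L1 3'UTR against input (adjusted p = 1.81e-07) and -0.99 ± 0.26 between the baits (adjusted p = 0.00645).

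miR-10525-3p, within GTF2IRD1 on chromosome 7, held 1, 0 and 0 counts in the input, 23, 51 and 42 with the MS2 control and 7, 2 and 1 with the PD-L1 3'UTR. The order of the groups was that of miR-7974. With 1 count in the input, the pooled ratio of MS2 control to input was 241, and its 95% counting interval ran from 42.4 to 9606 (adjusted p = 3.06e-05).

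miR-6808-3p, within DVL1 on chromosome 1, held 3, 0 and 1 counts in the input, 22, 55 and 28 with the MS2 control and 13, 5 and 5 with the PD-L1 3'UTR. Its log2 fold change was 5.55 ± 0.68 against input with the MS2 control (adjusted p = 4.32e-05) and 3.999 ± 0.74 with the PD-L1 3'UTR (adjusted p = 0.000802). The difference between baits was -1.55 ± 0.54 (adjusted p = 0.0299). This call was lost with no filter, with the replicate block, and without replicate 2 or 3 of either bait, at adjusted p of 0.0652 to 0.124 for the left-out libraries.

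Both arms of miR-10395 were called. The 3p arm measured 3.95, 8.43 and 3.83 CPM in the input, 140.3, 143 and 93.8 CPM with the MS2 control and 21.2, 25.5 and 18.9 CPM for the PD-L1 3'UTR, so that the 3 groups did not overlap. It rose by 4.55 ± 0.37 on the log2 scale with the MS2 control (adjusted p = 2.21e-06), and its 5p arm by 5.23 ± 0.78 (adjusted p = 0.000179).

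miR-3691-5p, from an intron of LYRM4 on chromosome 6, held 13, 5 and 16 counts in the input, 168, 255 and 97 with the MS2 control and 6, 1 and 11 with the PD-L1 3'UTR. The PD-L1 3'UTR libraries overlapped the input, and the MS2 control stood apart from both. Its log2 fold change was 4.97 ± 0.44 against input (adjusted p = 4.87e-06) and the PD-L1 3'UTR lay 4.25 ± 0.46 below the control (adjusted p = 1.54e-05). miR-3681-5p, from an intron of the lncRNA MIR3681HG, measured 1.32, 3.37 and 3.15 CPM in the input, 65.3, 65.4 and 28.0 CPM with the MS2 control, and 9.91, 4.02 and 7.26 CPM for the PD-L1 3'UTR.

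**Figure D3:**
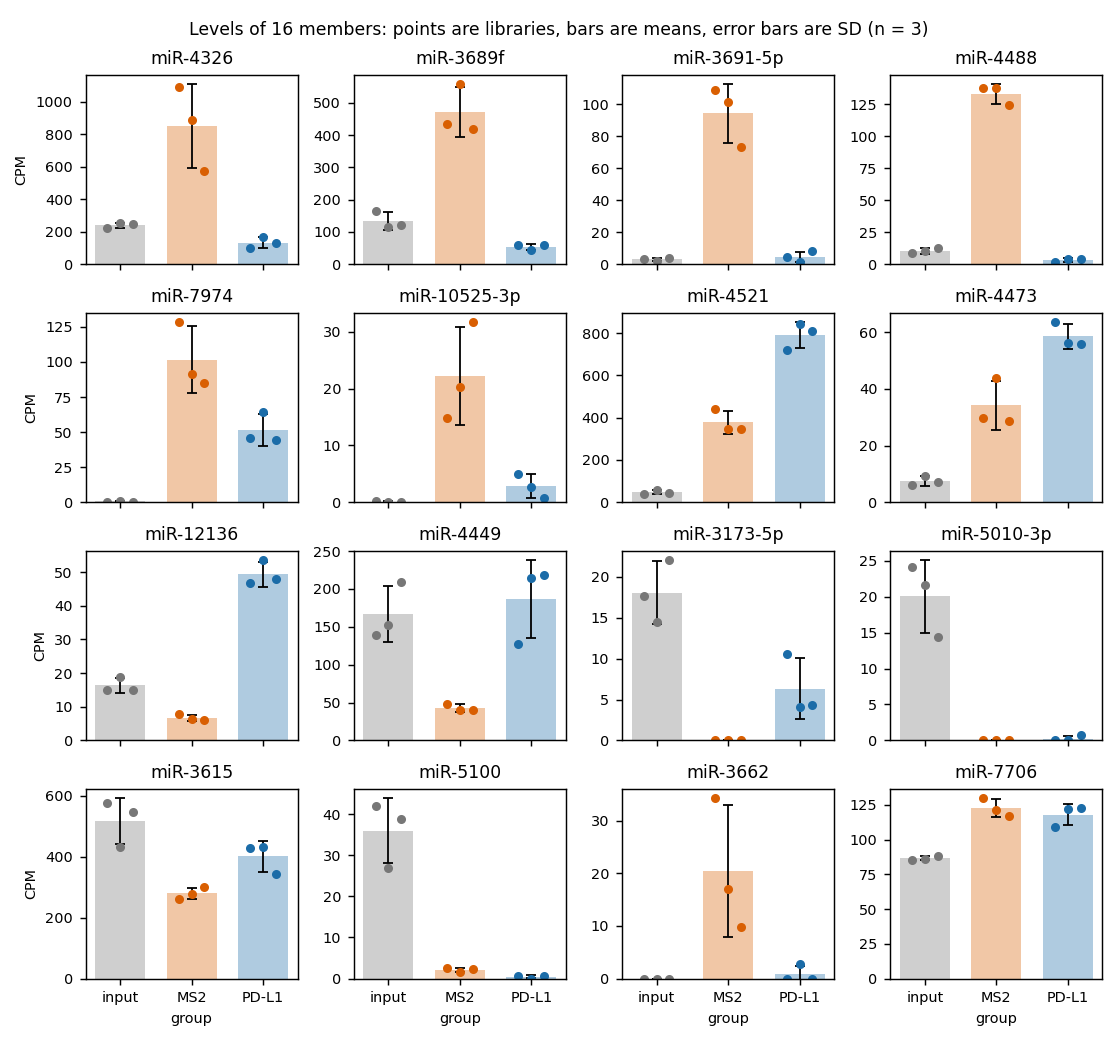
CPM is plotted by group for 16 members, with points for the 3 libraries, bars for means and error bars for SD. miR-4326, miR-3689f, miR-3691-5p, miR-4488 and miR-3662 peak with the MS2 control, miR-4521, miR-4473 and miR-12136 with the PD-L1 3'UTR, and miR-5010-3p, miR-3173-5p and miR-5100 in the input.

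Several more abundant members also peaked with the MS2 control, and in these the PD-L1 3'UTR was lowest. miR-4326, the member with most counts on the control resin, measured 220.4, 252 and 246 CPM in the input, 1092, 888 and 575 CPM with the MS2 control, and 101, 169 and 128 CPM for the PD-L1 3'UTR. The 3 groups were separate, with the PD-L1 3'UTR lowest. It rose by 1.83 ± 0.25 on the log2 scale with the MS2 control (adjusted p = 0.000103), fell by 2.69 ± 0.27 between the baits (adjusted p = 7.88e-06), and was 0.85 ± 0.25 below the input with the PD-L1 3'UTR (adjusted p = 0.0123). The last call was lost with scaling by library totals, at a log2 fold change of -0.29 (adjusted p = 0.349).

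miR-4488, on chromosome 11, held 32, 30 and 57 counts in the input, 213, 348 and 164 with the MS2 control and 2, 3 and 6 with the PD-L1 3'UTR. Of all members it showed the largest fitted fall between the baits, by 5.38 ± 0.38 on the log2 scale (adjusted p = 5.68e-07). It was also 1.72 ± 0.38 below the input with the PD-L1 3'UTR (adjusted p = 0.00259). Its 18 bases are 61.1% guanine and match GRCh37 at 2 places.

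The miR-3689 names, several of which share a sequence, moved in the same direction in both comparisons with the MS2 control. Their hairpins lie within 1 lncRNA locus of chromosome 9, with miR-3689c at chr9:134849302-134849323 and miR-3689f at chr9:134850783-134850804 on the minus strand (GRCh38.p14). Exact matches in GRCh37 numbered 12 for miR-3689a-3p, 3 for the shared 5p sequence and 2 for the shared 3p sequence. Of the 53 sequences searched, 13 matched several places. Summed over its 7 member names, the family measured 283, 193 and 211 CPM in the input, 814, 869.96 and 661 CPM with the MS2 control, and 92.0, 76.5 and 84.9 CPM for the PD-L1 3'UTR. The groups were again separate. The mean with the MS2 control was 3.41-fold that of the input and 9.25-fold that of the PD-L1 3'UTR.

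Within the family, all 7 names were called higher with the MS2 control than in both other groups, where 19.1% of all tested miRNAs were. Names with the same sequence do not count as separate results. The 5p names miR-3689a-5p, miR-3689b-5p, miR-3689e and miR-3689f were also lower with the PD-L1 3'UTR than in the input, by 1.30 to 1.92 on the log2 scale, and the 3p names were not called there. miR-3689f, with 471 ± 77.2 CPM the most abundant of them on the control resin, rose by 1.82 ± 0.21 against input (adjusted p = 3.36e-05) and fell by 3.12 ± 0.23 between the baits (adjusted p = 8.26e-07). The identical 5p sequences of miR-3689a, miR-3689b and miR-3689e held 162, 142 and 127 counts in input replicate 1, and how the counting divided reads among them is not given in the sources used here. Their sum fell from 268 ± 69.0 CPM with the MS2 control to 27.0 ± 3.40 CPM for the PD-L1 3'UTR. The 3p sequence shared by miR-3689b-3p and miR-3689c summed to 2.58 ± 0.783 CPM in the input and 34.1 ± 7.19 CPM on the control resin, a ratio of 13.2, and to 2.51 ± 2.503 CPM for the PD-L1 3'UTR. Thus the rise over input was larger in the 3p sequence than the ratio of 2.93 of the shared 5p sequence, a difference that was not tested.

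The second comparison set the PD-L1 3'UTR bait against the MS2 control. Of the 61 tested members, 28 were lower, where 28.7% of all tested miRNAs were, and 8 were higher, where 31.4% of all were. The median log2 fold change was -1.35 over the members and 0.02 over all tested. Both comparisons share the MS2 control libraries. Of the members, 25 were higher with the MS2 control than in both other groups, where 19.1% of all tested were. Among miRNAs numbered below 1000 and let-7, 117 of 319 were higher and 79 lower between the baits.

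Besides the names above, miR-3164 was among the largest falls. It held 39, 14 and 43 counts in the input, 12, 92 and 16 with the MS2 control, and 1, 1 and 0 with the PD-L1 3'UTR. The input and the control overlapped, and both stood above the PD-L1 3'UTR. The pooled ratio of MS2 control to PD-L1 3'UTR was 39.4, with a 95% counting interval of 10.7 to 328.7 (adjusted p = 0.00119). miR-3689b-3p, at 23, 45 and 14 counts with the control and 0, 2 and 0 with the PD-L1 3'UTR, had a pooled ratio of 26.9 with an interval of 7.21 to 225.8 (adjusted p = 0.00373).

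The 8 members higher with the PD-L1 3'UTR than with the MS2 control were miR-3173-5p, miR-12136, miR-4449, miR-4788, miR-3152-3p, miR-4521, miR-4473 and miR-3615. They differ in how they stood to the input. miR-3173-5p, miR-4449, miR-3615 and miR-12136 were lower on the control resin than in the input. With the PD-L1 3'UTR, miR-12136, miR-4521, miR-4473 and miR-3152-3p were higher than in both other groups.

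Higher with the PD-L1 3'UTR than in both other groups were 4 members, where 18.9% of all tested miRNAs were. miR-4521 measured 41.0, 58.7 and 44.4 CPM in the input, 441, 348 and 345 CPM with the MS2 control, and 721, 844 and 808 CPM for the PD-L1 3'UTR. The 3 groups were separate and rose in this order. Its log2 fold change was 4.04 ± 0.20 for the PD-L1 3'UTR against input (adjusted p = 7.13e-08), 2.98 ± 0.19 for the MS2 control against input (adjusted p = 6.6e-07) and 1.06 ± 0.18 between the baits (adjusted p = 0.000451). The mature sequence, at chr17:8186948-8186969 on the plus strand (GRCh38.p14), begins at the base that follows the last base of the tRNA gene TRS-GCT4-3, a serine tRNA, at chr17:8186866-8186947.

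miR-12136 measured 15.0, 18.9 and 15.1 CPM in the input, 7.76, 6.34 and 6.05 CPM with the MS2 control and 46.7, 53.7 and 47.9 CPM for the PD-L1 3'UTR. It was depleted on the control resin and highest with the PD-L1 3'UTR, with no overlap between any 2 groups. The log2 fold change between the baits was 2.87 ± 0.28 (adjusted p = 6.15e-06), that over the input 1.59 ± 0.25 (adjusted p = 0.000254), and that of the control against input -1.27 ± 0.27 (adjusted p = 0.00169). The control's call against input was lost with scaling by library totals, at -0.65 (adjusted p = 0.0576). Its 18 bases match GRCh37 at 2 places, of which 1 is mitochondrial: chrM:7497-7514 on the minus strand, where they are the first bases of MT-TS1, a mitochondrial serine tRNA. Reads from that tRNA and from the named hairpin on chromosome 1 cannot be told apart by this sequence.

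miR-4473, from an intron of MLLT3 on chromosome 9, measured 6.05, 9.44 and 6.98 CPM in the input, 29.7, 44.01 and 28.8 CPM with the MS2 control, and 63.7, 56.3 and 55.9 CPM for the PD-L1 3'UTR. It followed the order of miR-4521. The log2 fold change was 2.97 ± 0.29 over the input (adjusted p = 1.08e-05) and 0.77 ± 0.27 over the control (adjusted p = 0.0293). The latter was lost with no filter, with separate loci and on leaving out any library but input replicate 1 or MS2 control replicate 2. The left-out libraries gave log2 fold changes of 0.63 to 0.81 (adjusted p of 0.0607 to 0.123), and adjusted p reached 0.197 over all alternatives. Without PD-L1 3'UTR replicate 1 the log2 fold change was 0.74 (adjusted p = 0.0765).

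miR-3152-3p, from an intron of ADAMTSL1 on chromosome 9, measured 6.05, 5.73 and 4.28 CPM in the input, 4.53, 8.33 and 3.03 CPM with the MS2 control, and 14.2, 20.1 and 9.43 CPM for the PD-L1 3'UTR. The input and the control overlapped. Its log2 fold change was 1.35 ± 0.49 over the control (adjusted p = 0.0344) and 1.41 ± 0.47 over the input (adjusted p = 0.0217). Without PD-L1 3'UTR replicate 1 these were 1.41 (adjusted p = 0.0731) and 1.37 (adjusted p = 0.065), past the threshold in neither. The first call was also lost with no filter, with DESeq2 and without 6 other libraries, that is any but MS2 control replicate 2 and PD-L1 3'UTR replicate 3. The second was lost with no filter and without any input library or PD-L1 3'UTR replicate 2. Adjusted p reached 0.133 and 0.184.

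miR-4449, from an exon of the lncRNA DANCR, measured 139, 152 and 209 CPM in the input, 48.5, 40.05 and 40.1 CPM with the MS2 control and 127, 215 and 218 CPM for the PD-L1 3'UTR. Input and PD-L1 3'UTR overlapped, and the control lay below both. It fell by 1.96 ± 0.26 on the log2 scale with the control (adjusted p = 8.8e-05) and was 2.12 ± 0.27 higher with the PD-L1 3'UTR than with the control (adjusted p = 5.16e-05). miR-3615, from a UTR of NHERF1 and the most abundant member of the input at 517 ± 74.9 CPM, stood at 280.04 ± 18.2 CPM with the MS2 control and 401 ± 51.1 CPM for the PD-L1 3'UTR. Its fall of 0.89 ± 0.17 on the control resin (adjusted p = 0.000802) was lost with scaling by library totals, at -0.26 (adjusted p = 0.164). Its difference between the baits, 0.52 ± 0.17 (adjusted p = 0.0201), was lost with no filter and without input replicate 2, the control's replicate 2 or 3, or replicate 2 with the PD-L1 3'UTR. Adjusted p was 0.0514 to 0.0691 for the left-out libraries, and reached 0.123 over all alternatives.

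miR-4788 measured 9.20, 13.4 and 10.2 CPM for the PD-L1 3'UTR against 3.88, 4.36 and 2.27 CPM with the MS2 control, a log2 fold change of 1.56 ± 0.45 (adjusted p = 0.011) that was not called with no filter. Its input, at 5.52, 7.08 and 7.21 CPM, lay between the eluates, and neither difference passed the test.

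The members that the control resin held least came from host genes of several kinds. miR-5010-3p, whose hairpin in ATP6V0A1 on chromosome 17 reaches over a coding exon in GENCODE, held 92, 64 and 64 counts in the input, 0, 0 and 0 with the MS2 control and 0, 0 and 1 with the PD-L1 3'UTR. It was nearly absent from both eluates. It was at least 11.1-fold lower on the control resin, with that group set at 3 counts per library (adjusted p = 8.27e-05), and the pooled ratio of input to PD-L1 3'UTR was 69.4, with an interval of 12.3 to 2754 (adjusted p = 0.000276).

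miR-3173-5p, from an intron of DICER1, the gene of the enzyme that cuts miRNA precursors, held 67, 43 and 98 counts in the input, 0, 0 and 0 with the MS2 control and 15, 3 and 6 with the PD-L1 3'UTR. It too was unseen on the control resin, but was present in each PD-L1 3'UTR library. It was at least 10.04-fold lower with the control than in the input (adjusted p = 8.8e-05), and the PD-L1 3'UTR exceeded the control at least 3.52-fold (adjusted p = 0.000678). Its fall of 1.46 ± 0.49 from the input to the PD-L1 3'UTR (adjusted p = 0.0279) was lost with library totals, with DESeq2, and without input replicate 1 or 3 or PD-L1 3'UTR replicate 2 or 3. Adjusted p was 0.051 to 0.0775 for the left-out libraries, and reached 0.151 over all alternatives.

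miR-5100 held 160, 80 and 173 counts in the input, 4, 4 and 3 with the MS2 control and 1, 0 and 1 with the PD-L1 3'UTR. It fell by 4.08 ± 0.42 on the log2 scale with the control (adjusted p = 1.25e-05), and the pooled ratio of input to PD-L1 3'UTR was 65.2, with an interval of 17.9 to 539.8 (adjusted p = 6.6e-06). miR-3940-3p, from a hairpin over a coding exon of KHSRP in GENCODE, measured 21.3, 27.6 and 30.2 CPM in the input, 7.11, 2.78 and 3.78 CPM with the control and 2.83, 0 and 0.726 CPM for the PD-L1 3'UTR. It fell by 2.56 ± 0.52 and 4.21 ± 0.65 on the log2 scale in the 2 eluates (adjusted p = 0.00125 and 0.000245). miR-6516-3p, which lies wholly within the small Cajal body RNA SCARNA16, measured 26.8, 30.0 and 30.2 CPM in the input, 7.76, 4.76 and 6.05 CPM with the control and 2.83, 2.68 and 0.726 CPM for the PD-L1 3'UTR, and was the one member that was lower at each of the 3 comparisons. Between the baits it fell by 1.58 ± 0.51 (adjusted p = 0.0205), a call lost with no filter, with DESeq2, and without PD-L1 3'UTR replicate 3 or the control's replicate 1, at adjusted p of 0.055 and 0.103.

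The third comparison set the PD-L1 3'UTR against the input. Of the 61, 17 were higher, where 34.1% of all tested miRNAs were, and 16 were lower, where 32.4% of all were. The median log2 fold change was -0.12, against 0.04 over all tested, so the list as a whole lay near the other miRNAs here. With scaling by library totals, the median of all tested moved from 0.04 to 0.60, and 24 members were higher and 13 lower. Of the 25 members that peaked on the control resin, 14 had no call between PD-L1 3'UTR and input, where 9.31% of all tested miRNAs showed this pattern. A further 6 had the PD-L1 3'UTR called lower than the input, where 6.86% of all showed the pattern, and 5 were higher, where 2.94% did. Another 7 were higher in both eluates than in the input with no call between the baits, among them miR-7706 and miR-4485-3p, where 9.8% of all were. Lower in both eluates than in the input were 7, including 5 with no call between the baits, where 19.1% and 11% of all were. miR-7706, at 86.7 ± 1.69 CPM in the input and 123 ± 6.47 CPM with the control, rose by 0.50 ± 0.17 (adjusted p = 0.0203), and this call was lost with no filter and on leaving out any library but MS2 control replicate 2, the latter at adjusted p of 0.056 to 0.216. Its difference of 0.44 between PD-L1 3'UTR and input (adjusted p = 0.0383) was lost with no filter, with the replicate block, with separate loci and on leaving out any of the 9 libraries, at adjusted p of 0.0591 to 0.346 for the left-out libraries. Without PD-L1 3'UTR replicate 1 the log2 fold changes were 0.42 with the control (adjusted p = 0.056) and 0.44 with the PD-L1 3'UTR (adjusted p = 0.0759). In 9 members no comparison was called, where 12.3% of all tested had no call.

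Where both arms of a hairpin were members, their shares differed between the groups in some pairs. There were 19 such hairpins, and both arms were tested in 5. In miR-10401 the arms moved in opposite directions. Its 5p arm held 40, 40 and 59 counts in the input, 81, 134 and 80 with the MS2 control and 6, 2 and 16 with the PD-L1 3'UTR, and its 3p arm 114, 130 and 282, then 2, 19 and 9, then 3, 3 and 3. The 5p share thus went from 17.3% to 26.0% over the input libraries to 87.6% to 97.6% over the control libraries. On the control resin the 5p arm rose by 2.15 ± 0.37 on the log2 scale (adjusted p = 0.00044) and the 3p arm fell by 3.09 ± 0.51 (adjusted p = 0.000348).

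In miR-3152 the 5p arm, at 33.5 ± 4.43 CPM in the input, 56.7 ± 5.41 CPM with the control and 62.9 ± 7.66 CPM for the PD-L1 3'UTR, was the major one in every library, at 75.4% to 95.3% of both arms. Its rise over the input was 0.76 ± 0.22 with the control (adjusted p = 0.00933) and 0.91 ± 0.22 with the PD-L1 3'UTR (adjusted p = 0.00396). Both calls were lost with no filter and without input replicate 2 or 3, and the first also without MS2 control replicate 3. Adjusted p was 0.051 to 0.109 for the left-out libraries, and reached 0.379 and 0.213 over all alternatives.

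**Figure D4:**
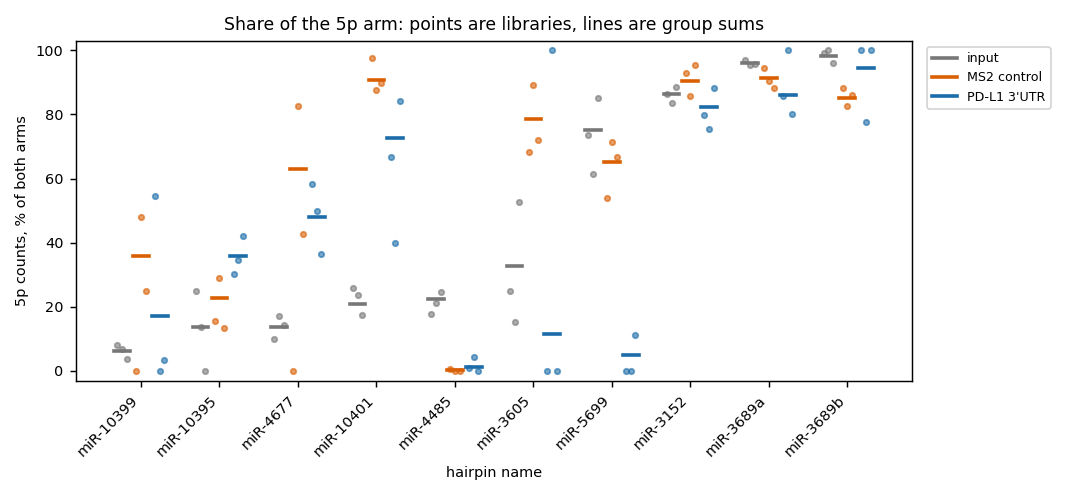
The share of 5p counts among both arms, in percent, is plotted for the 10 hairpins with at least 20 counts in every group, with points for libraries and lines for group sums. miR-10401 goes from 20.9% in the input to 90.8% with the MS2 control, miR-4485 from 22.3% to 0.237%, and the 3 hairpins at the right stay above 80% in each group sum.

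miR-4485 showed the reverse. The 5p arm held 13, 26 and 49 counts in the input, 1, 0 and 0 with the MS2 control and 1, 2 and 0 with the PD-L1 3'UTR, and was not tested. The 3p arm measured 15.8, 32.4 and 34.0 CPM in the input, 119.6, 42.8 and 96.9 CPM with the control, and 79.3, 57.7 and 50.8 CPM for the PD-L1 3'UTR. It rose by 1.65 ± 0.41 on the log2 scale with the control (adjusted p = 0.00466) and by 1.19 ± 0.42 with the PD-L1 3'UTR (adjusted p = 0.0263), the second of which was lost with the replicate block and without any input library, the control's replicate 3, or replicate 1 or 2 with the PD-L1 3'UTR. It was 0.92 (adjusted p = 0.0937) without PD-L1 3'UTR replicate 1. Its sequence has 4 exact matches in GRCh37, of which chrM:2563-2582 lies in MT-RNR2, the large mitochondrial rRNA. Together with miR-12136 it was 1 of 2 tested members, of 53 searched, that matched the mitochondrial genome. The sources used here do not give how reads with several matches were counted.

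In the low-count pairs the share also moved. miR-3605-5p held 5, 2 and 10 counts in the input, 15, 33 and 18 with the control and 0, 3 and 0 with the PD-L1 3'UTR, while its 3p arm held 15, 11 and 9, then 7, 4 and 7, then 15, 0 and 8. For miR-6821 the 5p arm held 2, 9 and 12 counts in the input and 0, 9 and 11 with the control, and the 3p arm 17, 19 and 33 against 0, 0 and 1. No test was made of these shares, and intervals of counts cover counting error only.

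Other positions were searched for all 127 members with a sequence. Over a tRNA, snoRNA, rRNA or other small RNA gene of RefSeq, or next to one within 10 bases, lay 6 members. These were miR-4521, both arms of miR-6516, miR-3651 within SNORA84 and both arms of miR-10396b within the ribosomal precursor RNA45SN1. Of these, miR-4521 and miR-6516-3p were tested and the others were not. miR-3651 held 1, 0 and 5 counts in the input, 14, 0 and 1 with the control and 7, 1 and 2 with the PD-L1 3'UTR. Of members opposite an older hairpin, only miR-3065-5p and miR-3074-5p were found, neither tested, and miR-3074-5p, which shares the locus of miR-24-1, held 11, 11 and 17 counts in the input and 0, 0 and 0 on the control resin.

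For 55 hairpins of tested members, 33 were found by symbol in GENCODE. Of these, 10 lay in an intron of a protein-coding gene on the same strand, 4 over an exon of one on the same strand, and 19 over neither. Without a stated strand setting, reads from a miRNA and from an RNA on the opposite strand cannot be told apart.

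Base content ran with the control comparison, as a description across miRNAs that share the same libraries. Among the 53 tested members with a sequence, Spearman's rho of guanine content with the log2 fold change of the MS2 control against input was 0.39, and that of cytosine content -0.39. For the PD-L1 3'UTR against the MS2 control the values were -0.38 and 0.38, and that comparison shares the control libraries. Combined GC content gave -0.05. Members that rose on the control resin had a median of 31.8% guanine and 22.7% cytosine, and those that fell 23.3% and 36.4%. Among 318 other tested miRNAs the rho was 0.22 for guanine and -0.12 for cytosine.

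**Figure D5:**
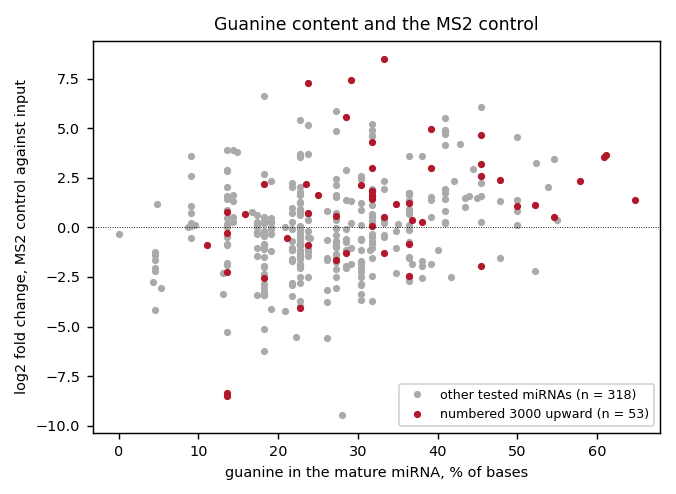
Guanine content, as percent of the bases of the mature miRNA, is plotted against the log2 fold change of the MS2 control against input, with red points for 53 tested members and grey points for 318 other tested miRNAs. Spearman's rho is 0.39 among the red points and 0.22 among the grey ones, with wide scatter of the points around either relation.

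Sites for the members were looked for in the CD274 3'UTR of GENCODE transcript CD274-202, a stretch of 2692 bases. The extent of the bait was not analysed here. A match was the complement of bases 2 to 8, or of bases 2 to 7 followed by A. Of the 53 tested members, 8 had one, and 96 of 318 other tested miRNAs did. The sites of 4 members are printed with the match in capitals and the bases 5' of it in lower case, on the plus strand of GRCh37.
miR-12136 site, match at chr9:5470436-5470442: gcatttgattgtcACTTTTT
miR-3152-3p site, match at chr9:5469512-5469518: ttttcctaaatagTAACACA
miR-4449 site, match at chr9:5468291-5468297: ctcagtgttggaaCGGGACA
miR-7974 site, match at chr9:5470039-5470045: gctgtcatcactaCACAGCC

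Of the 8 members with a match, 3 were higher and 3 lower with the PD-L1 3'UTR than with the MS2 control, at a median log2 fold change of -0.92. Of the 45 without, 5 were higher and 22 lower, at a median of -1.55. Among other tested miRNAs, 41 of the 96 with a match were higher and 19 lower, at a median of 0.50, and 67 of the 222 without were higher and 64 lower, at a median of 0.09. For the PD-L1 3'UTR against the input, 5 members with a match were higher and 0 lower, at a median of 1.50, and 8 without were higher and 13 lower, at -0.42. The other tested miRNAs with a match were then 44 higher and 26 lower, at 0.37, and those without 68 higher and 79 lower, at -0.03. The 3 higher members were miR-12136, miR-3152-3p and miR-4449. miR-7974, miR-10525-3p and miR-3605-5p had a match and were lower. Neither miR-4521 nor miR-4473 had one. A match of these letters is no evidence of a site in use, and the sets were not tested against each other.

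The 87 members below the filter held 30 to 211 counts in all, with a median of 51. Their mean CPM was highest in the input for 38, with the MS2 control for 35 and with the PD-L1 3'UTR for 14. No PD-L1 3'UTR library held a count of 19 of them, against 6 for the MS2 control and 1 for the input, and the PD-L1 3'UTR libraries were the shallowest. At 3 counts, the limit that a count of 0 allows, an untested member could have reached 2.12 to 4.02 CPM in a PD-L1 3'UTR library unseen. Over all 148 members the mean CPM was highest with the MS2 control for 71, in the input for 51 and with the PD-L1 3'UTR for 26.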

How the data were processed

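Small RNA of ES-2 input extract and miTRAP eluates was sequenced single-end in 9 libraries. The deposited table holds raw counts per mature miRNA locus, made by the authors with miRBase annotation on hg38, and the submitters' processing notes name cutadapt 1.18, Bowtie2 2.2.6 and featureCounts 1.6.3. Strand and multiple-mapping settings are not given in the sources used here. Loci of one name were summed. Counts were fitted with edgeR 4.0.16 (R 4.3.3) in one quasi-likelihood model of 3 group means over all 9 libraries, with TMM scaling, the filterByExpr function (8.05 CPM) and Benjamini-Hochberg adjustment at 0.05 over 408 names. The SE is the log2 fold change divided by the square root of F. The fit, without the filter, was tested on simulated counts of 408 miRNAs for the MS2 control against input. With 200 changed by 2 on the log2 scale, as many up as down, 91.5% were recovered, and 2.03% of calls were false. These rates are over all 408 names and need not hold for the members, which were scarcer and more variable.

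Members and lists were chosen with earlier results of these data known. Members were named by rule: the 5 largest rises and falls of each comparison with the MS2 control and the 3 of the PD-L1 3'UTR against input, among called members with groups that do not overlap, the 5 most abundant per group, those higher with the PD-L1 3'UTR than in both others, pairs of arms, members opposite older hairpins or in other structured RNA, and the threshold's neighbours. miR-3681-5p, miR-4488 in the control comparison, miR-5701 and miR-6516-3p and the miR-3689 family were named after their values were seen. Exact genome matches were searched on both strands of GRCh37. CPM floors stand for 3 counts per library, and ratios with 1 to 3 counts have exact binomial 95% intervals, which cover counting error only. Alternatives were DESeq2 1.42.0, its size factors, library totals, no filter, a replicate block, separate loci, leaving out each library and, added after seeing the data, summing identical sequences.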

Additional observations from a re-analysis of the deposited data

How the results depend on the processing

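Counts of called members are given as higher/lower for the MS2 control against input, the PD-L1 3'UTR against the MS2 control and the PD-L1 3'UTR against input, which were 35/11, 8/28 and 17/16 as reported. They stayed within 1.5 times those values with DESeq2, its size factors, library totals, separate loci and identical sequences summed. With no filter, 148 members were tested and those lower numbered 31, 46 and 46, since scarce names enter. Leaving out 1 library at a time changed the filter too, so that 65 to 88 members were tested, and gave 31 to 36 higher and 11 to 19 lower, 5 to 8 higher and 29 to 36 lower, and 11 to 18 higher and 18 to 27 lower. Without PD-L1 3'UTR replicate 1 the counts were 36/19, 7/36 and 14/22. Of 82 calls of 35 named members followed through all alternatives, 66 were kept in each, 16 were lost in at least 1, and 0 reversed.

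The replicate numbers are shared between groups. With the replicate block, calls were 33/11, 8/27 and 14/15. Same-numbered libraries correlated at -0.17 to 0.13 in their deviations, and differently numbered ones at -0.12 to 0.19. With so few libraries this cannot show whether the numbers pair them, which the labels do not say. Depth limits the scarce members: in the shallowest library, of 672824 counts, a count of 0 allows a level of up to 4.02 CPM. Library totals, in place of TMM, shift all fold changes over the input upward.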

Other observations

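A short word was noticed after the values were seen and is given as a description with no test. The letters GAUG, read on the miRNA strand, occur in 6 of the 53 tested members with a sequence, in 6.6% of the 318 other tested miRNAs and in 8.52% of all 2370 mature names in the RefSeq table. Capitals mark the word, with overlapping matches joined.
miR-3662: gaaaauGAUGaguagugacuGAUG
miR-7974: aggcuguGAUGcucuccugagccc
miR-10525-3p: ugacuauGAUGugcaccugau
miR-3691-5p: agugGAUGAUGgagacucgguac
miR-3681-5p: uagugGAUGAUGcacucugugc
miR-3605-5p: ugagGAUGgauagcaaggaagcc
All 6 were higher with the MS2 control than in the input, at a median log2 fold change of 6.11, and lower with the PD-L1 3'UTR than with the MS2 control. All but miR-7974 held the filter's 8.05 CPM throughout the MS2 control alone. They were tested through the group where they are high, so these calls and the values beside them support nothing. The 47 other tested members had a median of 0.76, with 23 higher and 10 lower. Among the 21 tested miRNAs with lower numbers that hold the word, 9 were higher on the control resin and 6 lower, and the median was 0.89, against -0.23 in the 297 without it. The longer word UGAUG was in 5 of the 6 members and in 5 tested miRNAs with lower numbers, miR-21-5p among them, of which 0 were higher and 2 lower by edgeR's test. Members below the filter that hold the word were not counted, and they went both ways. miR-4787-3p held 37, 23 and 52 counts in the input and 1, 0 and 4 with the MS2 control. miR-10523-5p held 1, 0 and 1 counts in the input and 26, 14 and 4 with the MS2 control. How the word relates to the control resin was not tested.

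By arm, as a description, 12 of 16 5p names were higher with the MS2 control than in the input and 1 lower, against 9 and 5 of 19 3p names. Among other tested miRNAs, 50 of 162 5p names were higher and 64 lower, and 39 of 155 3p names were higher and 64 lower.

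miR-5701 had its largest count in the library that holds the most miRNAs of other tissues: 34 counts in PD-L1 3'UTR replicate 1, against 10 and 6 in replicates 2 and 3, 8, 8 and 10 with the MS2 control and 12, 7 and 18 in the input. These are raw counts, and the input libraries were the deepest. Its log2 fold change for the PD-L1 3'UTR against input was 2.10 (edgeR adjusted p = 0.0118). This call was not followed through the alternatives, so its value without that library is not given.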
